A study of Mus musculus with 60 samples.

Results

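The genes described here are 35 genes of the lysosome, taken by symbol from the 24411 genes of the count table: 11 proteases (the cathepsins and related enzymes), 7 glycosidases, 6 lipid enzymes, sterol proteins and activators, 6 membrane proteins and 5 subunits of the proton pump. All 35 symbols are in the table, and 32 of them were among the 9001 genes with enough reads to be tested. The samples were Kupffer cells, which are macrophages residing in the liver, from 15 C57BL/6J mice that the labels give as male and 8 weeks old. Wild-type mice received corn oil (5 mice) or a single dose of carbon tetrachloride (CCl4), a liver toxin, at 2 µl per g, diluted 1:4 in corn oil (5 mice). Trem1-deficient mice received the same dose of CCl4 (5 mice), and all mice were killed after 12 h. No Trem1-deficient mice given oil were part of the design, so the effect of CCl4 within that genotype cannot be measured. Trem1 encodes a receptor of myeloid cells that amplifies inflammatory signals, and the labels do not say which part of the gene was removed. Per the labels, liver cells were released with collagenase and freed of hepatocytes by centrifugation, CD11b-binding cells were taken out with magnetic beads, and cells binding F4/80 were kept from the remainder.

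Lysosomes are acidic organelles in which macrophages break down what they have engulfed. A proton pump in the membrane keeps the lumen acidic, soluble hydrolases (proteases, glycosidases and lipid enzymes) work there at low pH, and heavily glycosylated membrane proteins line the organelle. Kupffer cells clear particles, dead cells and old erythrocytes from the portal blood, and express these genes at high levels. Many of the same genes are also expressed by other macrophages and monocytes, so they mark no single cell type. Many lysosomal promoters hold a site with the core CACGTG, which is bound by the transcription factor TFEB and its relatives.

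Total gene counts ran from 812320 to 2593004 per mouse, and 3 counts in a library correspond to 1.16 to 3.69 CPM (counts scaled to a fixed library total). Trem1 averaged 53.2 CPM with oil, 343 with CCl4 in wild type and 4.23 in Trem1-deficient cells, where every library still held some reads. All 16 Kupffer cell markers examined had reads in every group. The sequencing index numbers in the library names form 2 series, and what these stand for is not given: the first holds the 5 mice given oil with mice 1 and 2 of the Trem1-deficient group, and the second the 5 wild-type mice given CCl4 with Trem1-deficient mice 3, 4 and 5. Sex-linked transcripts divided the libraries in the same way: the 7 libraries of the first series held 72 to 1552 counts of Xist and 0 to 7 of 4 Y-linked genes, and the 8 of the second 1 to 31 and 134 to 425, although all mice are labelled male. CCl4 and this division therefore cannot be told apart in the wild-type mice, and results are given with and without it where a fit allows. Malat1 took 14.3% of the gene counts of wild-type CCl4 mouse 1 against at most 2.22% elsewhere, and leaving it out of the totals changed no call on a lysosomal gene.

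As a group the lysosomal genes were lower in Kupffer cells of wild-type mice after CCl4 and stood near the oil level in Trem1-deficient mice after CCl4. Together the 35 genes took 1.93 to 3.22% of gene counts in the oil mice (median 2.91), 1.07 to 1.53% in the wild-type CCl4 mice (median 1.32) and 2.17 to 3.01% in the Trem1-deficient mice (median 2.96). The highest wild-type CCl4 mouse thus lay under the lowest mouse of either other group. In wild-type mice 13 of the 32 tested genes were lower after CCl4 and 2 were higher, by edgeR's quasi-likelihood test with the Benjamini-Hochberg adjusted p under 0.05. Over all 9001 genes tested 2.09% were lower and 3.04% higher. The median log2 fold change was -0.88 over the lysosomal genes and 0.06 over all genes. With both groups given CCl4, 6 of the 32 genes were higher in Trem1-deficient than in wild-type cells (0.778% of all genes) and 0 were lower (1.28% of all genes), although Ctsl was lower at an unadjusted p under 0.05, and DESeq2 also called 0 lower. Here the median log2 fold change was 0.64 over the lysosomal genes and -0.03 over all genes. Because these are bulk samples, fewer cells of a type and less RNA per cell cannot be told apart. Both comparisons use the same 5 wild-type CCl4 libraries, so opposite signs in them are partly built in.

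**Figure D1:**
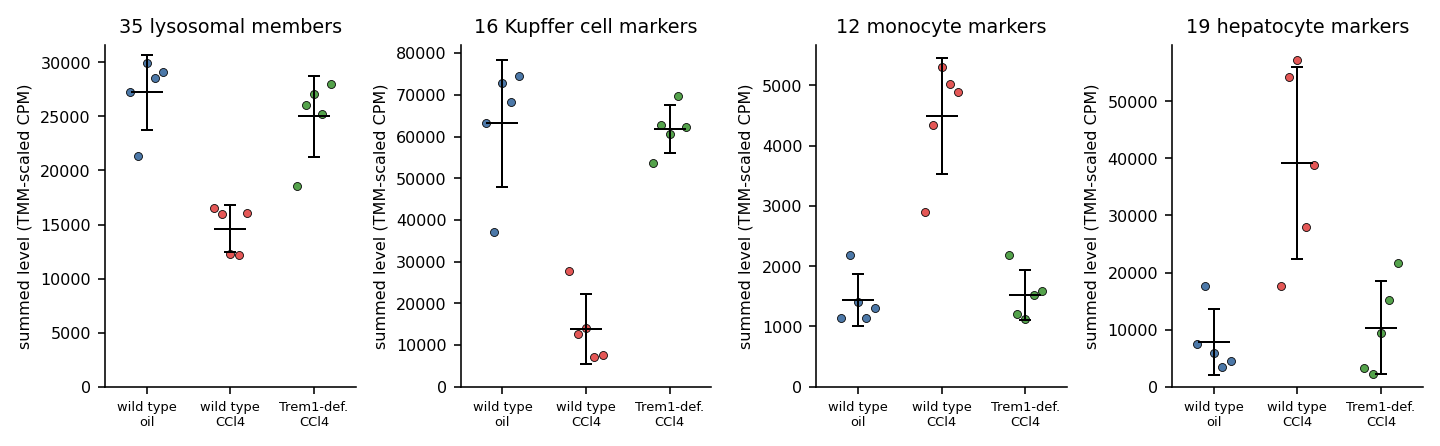
Summed level per mouse (points, TMM-scaled CPM) of the 35 lysosomal genes and of 3 lists of cell type markers in the 3 groups of 5 mice, with the group mean and SD in black. The lysosomal sum lies between 12170 and 16532 in wild-type CCl4 mice and at 18541 or more in all other mice, the Kupffer cell markers are likewise lowest in all 5 wild-type CCl4 mice, the monocyte markers are highest there, and the hepatocyte markers overlap between the groups.

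Markers of some cell types also differed between the groups. Of 16 Kupffer cell markers 12 were lower after CCl4 in wild-type mice, and their summed level per mouse was 37165 to 74539 CPM with oil, 7238 to 27858 with CCl4 in wild type and 53595 to 69625 with CCl4 in Trem1-deficient cells. Of 12 monocyte markers 6 were higher after CCl4 in wild-type mice, with sums of 1148 to 2189.8, 2894 to 5312 and 1117 to 2189 CPM in the 3 groups. Of 18 tested hepatocyte markers 4 were higher, with sums of 3448 to 17693, 17666 to 57159 and 2169 to 21669 CPM; Ass1 was at 0 in all libraries. Of 9 tested neutrophil markers 3 were higher, with sums of 221 to 1731, 1220.2 to 11046 and 389 to 3229 CPM. Between genotypes under CCl4, 12 of 16 Kupffer cell markers were higher (0.778% of all genes). Lower were 3 of 12 monocyte, 1 of 18 hepatocyte and 1 of 9 neutrophil markers (1.28% of all genes). The endothelial, stellate, T and NK, and B cell lists, with 10, 4, 3 and 2 markers tested, held 0 genes called by edgeR in both comparisons. Of 3 tested dendritic cell markers 1 was lower after CCl4. The part of these cell types in the lysosomal changes was not tested. Trem1-deficient mouse 1, the lowest of its group for the lysosomal genes, was also lowest for the Kupffer cell markers and highest for the monocyte markers. Not all mice followed such an order. Trem1-deficient mouse 4 had the highest Kupffer cell sum of its group (69625 CPM) but a lysosomal sum of 25254 CPM, under the group median of 26078. Wild-type CCl4 mouse 5 had 7605 CPM of Kupffer cell markers but a lysosomal sum of 16063 CPM, above its group median of 15987.

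**Figure D2:**
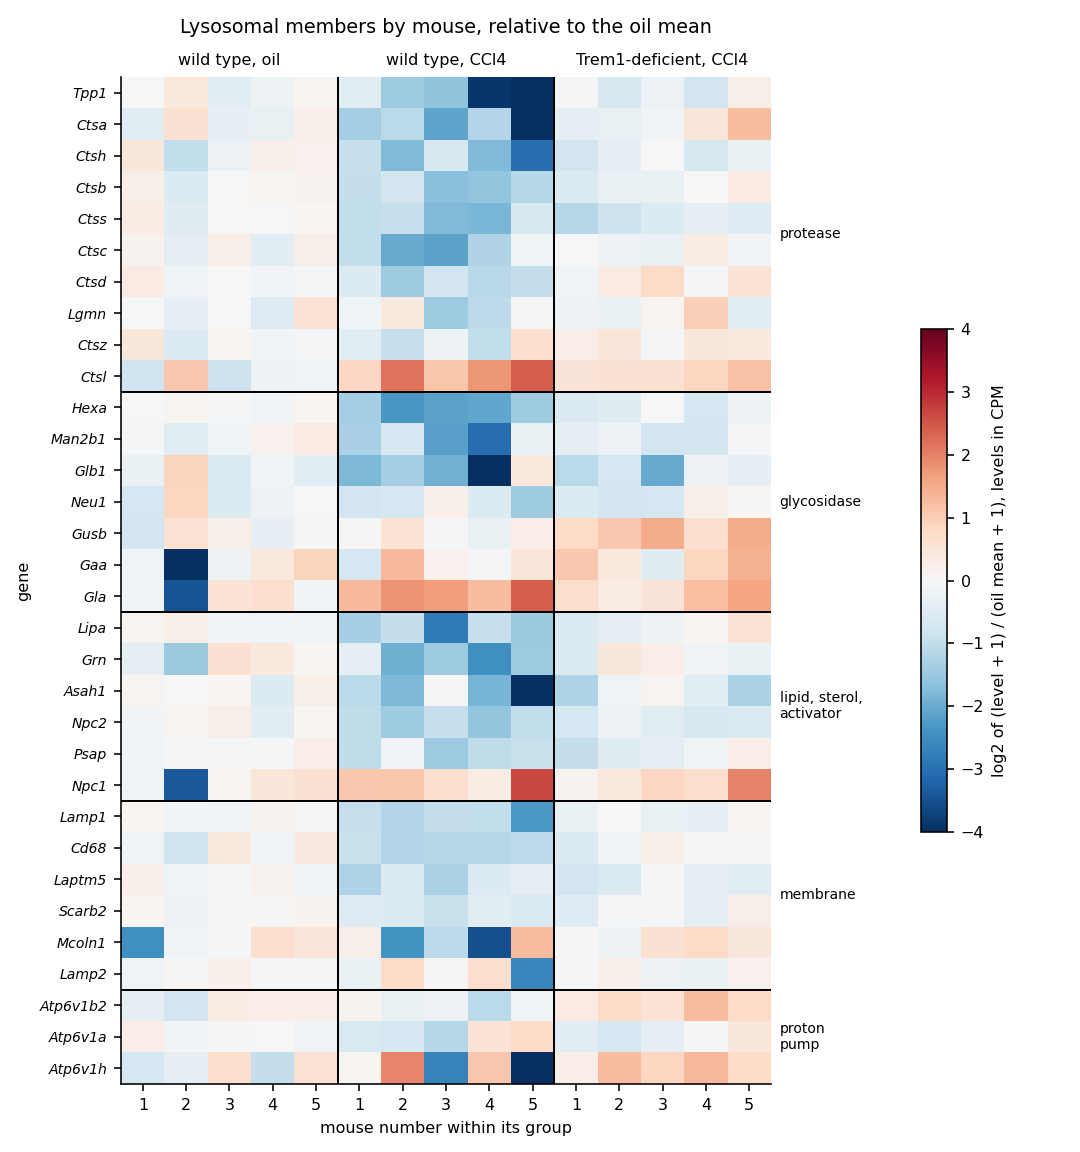
Level of each of the 32 tested lysosomal genes (rows, by role) in each of the 15 mice (columns, mouse number within its group), as log2 of the level plus 1 over the oil mean plus 1; colours stop at -4 and 4. Most rows are blue in the wild-type CCl4 mice and pale in the Trem1-deficient mice, while Ctsl, Gla and Npc1 are red in the former.

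Of the genes of the lysosomal groups, promoter windows (250 bases before to 50 after the start) were found in the RefSeq table (GRCm38.p6) for 28 of the 35; Ctsb, Ctsh, Npc1, Asah1, Atp6v0d2, Atp6v1b2 and Atp6v1h have none there. Some genes have more than 1 window, and shares are of genes that hold the motif in at least 1 of them. CACGTG stood in a window of 10 of the 28 genes (35.7%), against 12.1% of all tested genes with a window and 8.09% of all genes with one. Counted by window it stood in 10 of 33 (30.3%), against 9.98% of the windows of tested genes and 7.15% of all windows. The longer TCACGTGA, which contains CACGTG, stood in a window of 5 of the 28 genes (17.9%), against 2.39% of tested genes and 1.12% of all genes with a window. Both motifs read the same on either strand. GAGGAAGT, a site of the type bound by the myeloid factor PU.1 and searched on both strands, stood in a window of 4 of the 28 genes (14.3%), against 4.11% of tested genes and 3.69% of all genes. CACGTG was present in a window of 5 of the 14 genes called in either comparison and of 5 of the 12 tested genes called in neither, among those with a window. Of the genes lower after CCl4 in wild type, 2 of 11 with a window held it (18.2%). The stretches around the motif are given for the 5 called genes that hold it, and capitals mark CACGTG. Of these, Ctsd and Lamp1 were lower after CCl4, Ctsl and Gla were higher, and Ctsa was called between genotypes only.
Ctsa (chr2:164833749-164833795, plus strand): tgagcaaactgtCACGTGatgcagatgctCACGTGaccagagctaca
Ctsd (chr7:142387908-142387937, minus strand): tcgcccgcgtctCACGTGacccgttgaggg
Lamp1 (chr8:13159088-13159163, plus strand): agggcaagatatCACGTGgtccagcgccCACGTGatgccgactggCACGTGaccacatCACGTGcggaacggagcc
Ctsl (chr13:64370739-64370768, minus strand): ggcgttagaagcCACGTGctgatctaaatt
Gla (chrX:134601182-134601244, minus strand): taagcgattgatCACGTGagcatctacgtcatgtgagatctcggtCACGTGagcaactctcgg
Counted from the start as 0, the core began at -12 and 5 in Ctsa, at -98 in Ctsd (with another, not shown, at -245), at -61, -45, -28 and -15 in Lamp1, at -236 in Ctsl and at -227 and -194 in Gla. Ctsa, Ctsd and Gla hold the full TCACGTGA, and Lamp1 holds 4 cores without it. A match is a description of the sequence and no evidence of binding.

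Among the proteases, 5 of 10 tested genes were lower after CCl4 in wild-type mice and 1 was higher, with a median log2 fold change of -1.14. In this and the following paragraphs levels are TMM-scaled CPM in mouse order 1 to 5, fold changes are on the log2 scale with their standard error, and p is edgeR's adjusted p. The libraries were of 3' tags, so levels were not corrected for gene length. Counts are of reads, so levels of different genes can be compared only roughly. Ctsd, the aspartic protease cathepsin D (chr7:142375911-142388038, minus strand, GENCODE M21 on GRCm38), read 2611, 1853, 2046, 1938 and 1968 CPM in the oil mice, 1414, 783, 1218, 963 and 1085 in the wild-type CCl4 mice and 1839, 2592, 3599, 2016 and 3042 in the Trem1-deficient mice. All 5 wild-type CCl4 mice lay under every mouse of the other groups. For Ctsd the log2 fold change was -0.93 (SE 0.24, adjusted p = 0.0157) for CCl4 against oil in wild type and 1.26 (SE 0.24, adjusted p = 0.0026) for Trem1-deficient against wild type under CCl4. Ctsb, the cysteine protease cathepsin B (chr14:63122462-63145923, plus strand), read 2385, 1377, 1987, 2142 and 2249.7 CPM in the oil mice, 1045, 1208, 633, 682 and 922 in the wild-type CCl4 mice and 1385, 1694, 1667, 2006 and 2559 in the Trem1-deficient mice. Again no wild-type CCl4 mouse reached the lowest mouse of either other group. For Ctsb the fold changes were -1.18 (SE 0.25, adjusted p = 0.00326) and 1.05 (SE 0.25, adjusted p = 0.0182). Ctsa, a carboxypeptidase that also shields neuraminidase and beta-galactosidase (chr2:164832873-164841032, plus strand), read 87.9, 183, 95.0, 98.4 and 137 CPM in the oil mice, 46.5, 56.5, 27.3, 53.0 and 5.45 in the wild-type CCl4 mice and 93.8, 98.5, 109, 169.7 and 290.4 in the Trem1-deficient mice. The groups separated in the same way, but the call differed: Ctsa gave -1.66 (SE 0.52, adjusted p = 0.0573) for CCl4 against oil, which missed the threshold, and 2.00 (SE 0.52, adjusted p = 0.0385) for Trem1-deficient against wild type.

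Ctss, the cysteine protease cathepsin S, which trims the invariant chain of antigen presentation, read 2939, 1694, 2398, 2404 and 2495 CPM in the oil mice, 1209.9, 1257, 703, 672 and 1517 in the wild-type CCl4 mice and 1072, 1334, 1625, 1823 and 1686 in the Trem1-deficient mice. The oil mice stood above all wild-type CCl4 mice, and the Trem1-deficient mice spanned the gap between them. For Ctss the fold change was -1.15 (SE 0.26, adjusted p = 0.00503) for CCl4 against oil, while 0.49 (SE 0.25, adjusted p = 0.353) between the genotypes was not called. Ctsc, dipeptidyl peptidase of granule proteases, read 525, 370.1, 557, 354 and 562 CPM in the oil mice, 237, 117, 106, 204 and 416 in the wild-type CCl4 mice and 467, 415, 383, 577 and 434 in the Trem1-deficient mice. Wild-type CCl4 mouse 5 lay within the range of the oil group, and the fold changes were -1.13 (SE 0.33, adjusted p = 0.0402) and 1.08 (SE 0.33, adjusted p = 0.0796). Ctsh, an aminopeptidase of the same family, read 776, 286, 482, 643 and 635 CPM in the oil mice, 300.0, 164, 364, 166 and 69.5 in the wild-type CCl4 mice and 336, 436, 566, 365 and 466 in the Trem1-deficient mice. Oil mouse 2 lay within the wild-type CCl4 range. For Ctsh the fold changes were -1.41 (SE 0.36, adjusted p = 0.0156) and 1.03 (SE 0.35, adjusted p = 0.13), the second not called.

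Ctsl, the cysteine protease cathepsin L, went the other way and read 149, 558, 149, 226 and 230.2 CPM in the oil mice, 466, 1187, 571, 901 and 1415 in the wild-type CCl4 mice and 376, 402, 397, 473 and 593 in the Trem1-deficient mice. Oil mouse 2 was the single oil mouse within the wild-type CCl4 range. Ctsl rose by 1.79 (SE 0.36, adjusted p = 0.00198) after CCl4 in wild type, while -1.02 (SE 0.35, adjusted p = 0.128) between genotypes was not called. The remaining proteases were called in neither comparison by edgeR, though DESeq2 called Tpp1 lower after CCl4. Tpp1, a tripeptidyl peptidase, averaged 106 ± 24.2 CPM in oil, 31.7 ± 30.1 in wild-type CCl4 and 89.4 ± 26.0 in Trem1-deficient mice (SD, n = 5). Its fold changes were -1.73 (SE 0.62, adjusted p = 0.103) and 1.48 (SE 0.61, adjusted p = 0.228). Lgmn, the asparaginyl endopeptidase legumain that activates several cathepsins, averaged 292, 233 and 319 CPM, and Ctsz, a carboxypeptidase, 166, 139 and 207 CPM in the same order. Ctsk, best known from osteoclasts, had 25, 15 and 21 counts in the 3 groups and was not tested.

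**Figure D3:**
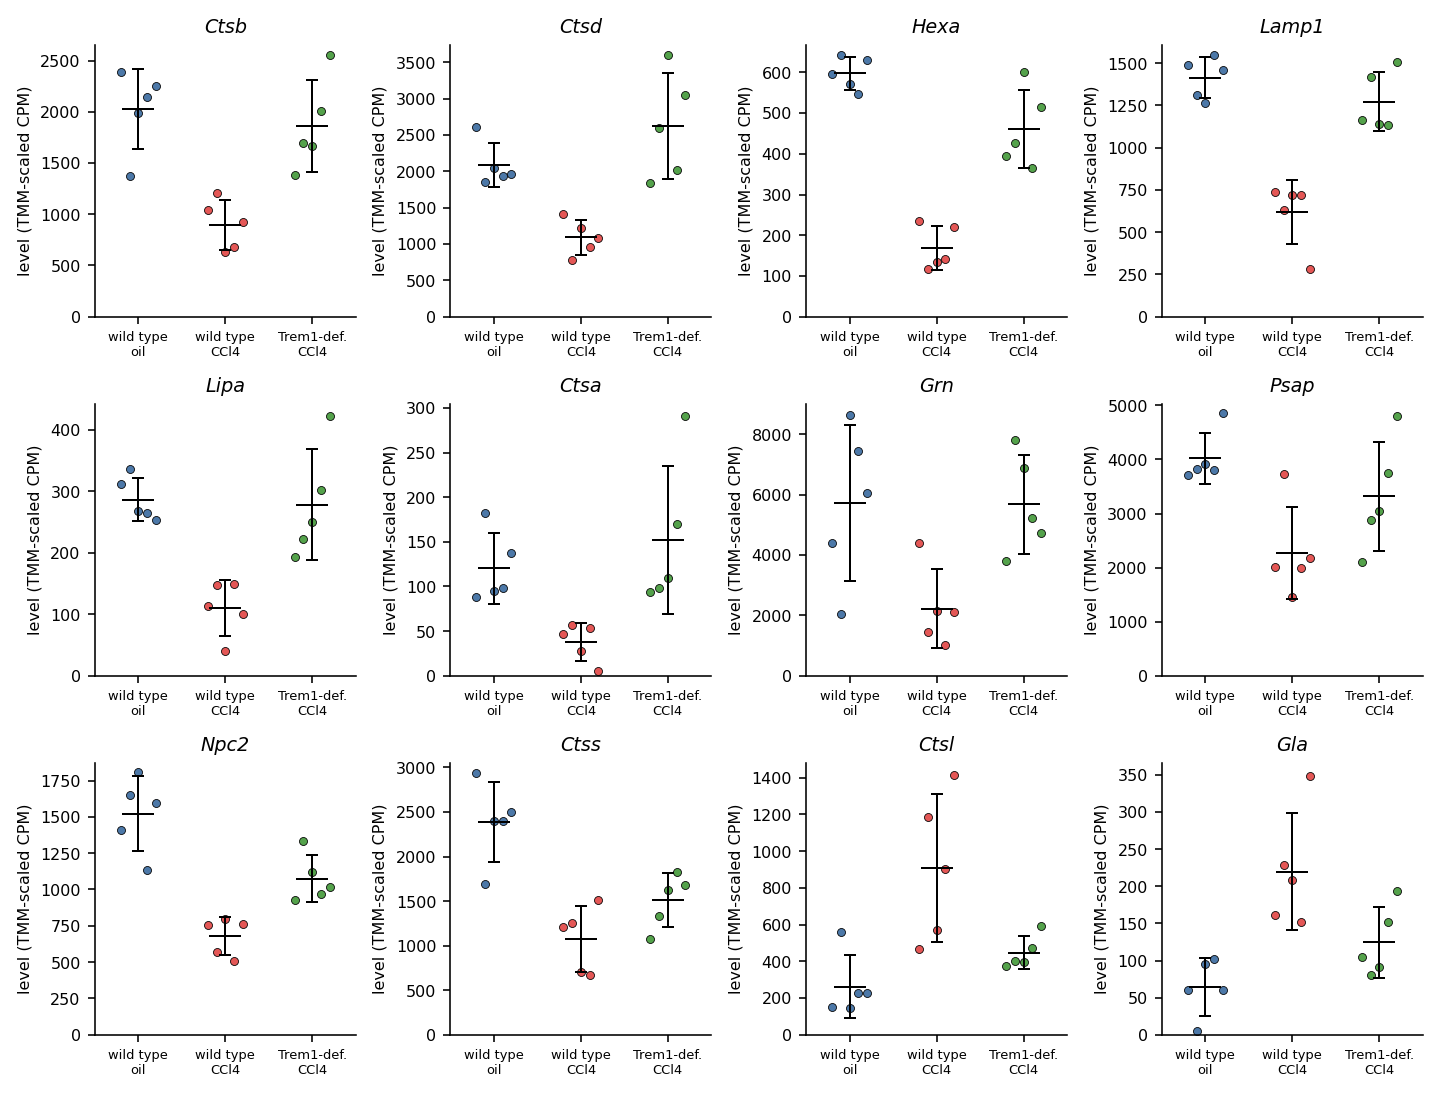
Level per mouse (points, TMM-scaled CPM) of 12 lysosomal genes called in at least 1 comparison, in the 3 groups of 5 mice, with the group mean and SD in black. For Ctsb, Ctsd, Hexa, Lamp1, Lipa and Ctsa no wild-type CCl4 mouse reaches a mouse of the other groups, while Ctsl and Gla are higher in the wild-type CCl4 group than in oil.

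Of the 7 glycosidases 1 was lower and 1 higher after CCl4 in wild-type mice, with a median of -0.54. Hexa, the alpha subunit of beta-hexosaminidase, which degrades gangliosides (chr9:59539540-59565109, plus strand), read 596, 642, 570.2, 548 and 630.5 CPM in the oil mice, 234, 117, 134, 142 and 221 in the wild-type CCl4 mice and 395, 428, 601, 366 and 515 in the Trem1-deficient mice. The oil mice differed little among themselves, and the wild-type CCl4 mice lay far under both other groups. For Hexa the fold change was -1.82 (SE 0.29, adjusted p = 0.000135) after CCl4, the lowest of the 32 genes, and 1.44 (SE 0.28, adjusted p = 0.00377) between genotypes. Gla, the X-linked alpha-galactosidase A, read 60.2, 4.93, 95.0, 102 and 59.8 CPM in the oil mice, 161, 228, 209, 152 and 349 in the wild-type CCl4 mice and 105, 80.1, 91.7, 151 and 194 in the Trem1-deficient mice. All 5 wild-type CCl4 mice were higher than all oil mice, which held for 1 of the 32 genes against 3.13% of all genes tested. Gla rose by 1.76 (SE 0.50, adjusted p = 0.0367); -0.82 (SE 0.49, adjusted p = 0.443) between genotypes was not called. Man2b1, an alpha-mannosidase, averaged 290.3 ± 57.2, 127 ± 84.4 and 221 ± 47.8 CPM (SD, n = 5) in oil, wild-type CCl4 and Trem1-deficient mice, with -1.20 (SE 0.40, adjusted p = 0.0769) after CCl4. Gusb, beta-glucuronidase, averaged 55.6 ± 19.5, 61.0 ± 14.2 and 124 ± 32.2 CPM. All 5 Trem1-deficient mice stood above all wild-type mice of both treatments for Gusb, but neither 1.02 (SE 0.47, adjusted p = 0.29) against wild-type CCl4 nor 1.15 (SE 0.47, adjusted p = 0.815) against wild-type oil was called. Neu1 (a sialidase), Glb1 (acid beta-galactosidase) and Gaa (acid alpha-glucosidase, which degrades glycogen) were called in neither comparison, with fold changes after CCl4 of -0.54, -1.15 and 0.39.

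Lipid enzymes, sterol proteins and activators were lower after CCl4 in wild-type mice in 4 of 6 genes, with a median of -1.24. Lipa, the acid lipase that frees cholesterol and fatty acids from lipoprotein lipid (chr19:34492318-34527474, minus strand), read 312, 336, 268, 265 and 253 CPM in the oil mice, 113, 148, 39.5, 150.0 and 101 in the wild-type CCl4 mice and 193, 223, 249.8, 302 and 423 in the Trem1-deficient mice. No wild-type CCl4 mouse reached the other groups. For Lipa the fold changes were -1.38 (SE 0.36, adjusted p = 0.0181) and 1.33 (SE 0.35, adjusted p = 0.0429). Npc2, the soluble protein that carries cholesterol to Npc1, read 1411, 1652, 1807, 1134 and 1598 CPM in the oil mice, 757, 567, 796, 509.9 and 762 in the wild-type CCl4 mice and 927, 1333, 1121, 971 and 1015 in the Trem1-deficient mice. The Trem1-deficient mice overlapped the oil mice and stood above all wild-type CCl4 mice. For Npc2 the fold change was -1.16 (SE 0.24, adjusted p = 0.00255) after CCl4 in wild type, and 0.66 (SE 0.24, adjusted p = 0.146) between genotypes was not called. Npc1, its membrane partner, differed in direction: its fold change after CCl4 was 1.43 (SE 0.60, adjusted p = 0.176), not called, and its levels ran from 3.70 to 72.0 CPM in oil and from 58.1 to 304 in wild-type CCl4 mice.

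Grn and Psap had the highest mean levels of the 35 genes. Grn, progranulin, a secreted and lysosomal glycoprotein, read 4384, 2049, 8626, 7442 and 6059.7 CPM in the oil mice, 4404, 1460.1, 2129, 1032 and 2095 in the wild-type CCl4 mice and 3797, 7816, 6882, 5210.5 and 4713 in the Trem1-deficient mice. Its oil and wild-type CCl4 ranges overlapped, and so did the 2 CCl4 groups, with wild-type CCl4 mouse 1 the highest of its group. For Grn the fold change was -1.36 (SE 0.37, adjusted p = 0.0325) after CCl4, and 1.35 (SE 0.36, adjusted p = 0.0549) between genotypes missed the threshold. Psap, the precursor of the saposins, which activate sphingolipid hydrolases, read 3707, 3823, 3918, 3803 and 4858 CPM in the oil mice, 2003, 3724, 1459, 1996 and 2177 in the wild-type CCl4 mice and 2099, 2885, 3042, 3758 and 4794 in the Trem1-deficient mice. Wild-type CCl4 mouse 2 stood at the oil level. Psap changed by -0.82 (SE 0.25, adjusted p = 0.0453) after CCl4 and by 0.55 (SE 0.24, adjusted p = 0.274), not called, between genotypes. Asah1, acid ceramidase, averaged 120 ± 23.3, 48.3 ± 43.0 and 85.1 ± 35.1 CPM (SD, n = 5) in the 3 groups and was called in neither comparison.

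Of the 6 membrane proteins 3 were lower after CCl4 in wild-type mice, with a median of -0.67. Lamp1, a major glycoprotein of the lysosomal membrane (chr8:13159161-13175338, plus strand), read 1489.5, 1311, 1266, 1546 and 1459 CPM in the oil mice, 740.2, 629, 722, 718 and 285 in the wild-type CCl4 mice and 1161, 1416, 1141, 1134 and 1505 in the Trem1-deficient mice. Each wild-type CCl4 mouse was under every mouse of the other groups, mouse 5 by the widest margin. For Lamp1 the fold changes were -1.19 (SE 0.25, adjusted p = 0.00362) and 1.04 (SE 0.25, adjusted p = 0.0246). Lamp2, the related X-linked protein that also serves autophagy, was not called, with 0.10 (SE 0.38, adjusted p = 0.929) and -0.12 (SE 0.38, adjusted p = 0.925), and ranged from 47.7 to 511 CPM among the wild-type CCl4 mice. Cd68, a macrophage glycoprotein of late endosomes, read 352, 222, 524, 347 and 494 CPM in the oil mice, 207, 171, 177, 175 and 185 in the wild-type CCl4 mice and 264, 346, 452, 378 and 401 in the Trem1-deficient mice. The wild-type CCl4 mice lay close together and under all other mice. For Cd68 the fold change was -1.08 (SE 0.30, adjusted p = 0.0283) after CCl4, and 1.01 (SE 0.30, adjusted p = 0.0694) between genotypes missed the threshold. Laptm5, a membrane protein of haematopoietic lysosomes and the third gene of the 35 by mean level, read 2959, 2272, 2449.8, 2842 and 2349 CPM in the oil mice, 1105, 1709, 1082, 1764 and 1952 in the wild-type CCl4 mice and 1515, 1748, 2476, 2042 and 1929 in the Trem1-deficient mice. Laptm5 fell without overlap between oil and wild-type CCl4 mice, with -0.76 (SE 0.23, adjusted p = 0.0486), and the Trem1-deficient mice overlapped both groups, with 0.35 (SE 0.23, adjusted p = 0.488) against wild type. Scarb2, the receptor that brings glucocerebrosidase to lysosomes, averaged 229 ± 22.3, 153 ± 17.7 and 209 ± 44.0 CPM (SD, n = 5); its 5 wild-type CCl4 mice lay under the oil mice, but -0.58 (SE 0.31, adjusted p = 0.327) was not called. Mcoln1, a cation channel of the lysosomal membrane, had a mean of 31.8 CPM over all mice and was not called.

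None of the 3 tested subunits of the proton pump was called in either comparison, and at an unadjusted p under 0.05 there were 0 after CCl4 and 1 between genotypes, while DESeq2 called 0 and 1. That one was Atp6v1b2, a catalytic-sector subunit, which read 318, 243, 496, 486 and 489 CPM in the oil mice, 447, 332, 343, 194 and 361 in the wild-type CCl4 mice and 516, 687, 608, 954 and 703 in the Trem1-deficient mice. All 5 Trem1-deficient mice stood above every wild-type mouse of either treatment, with 1.05 (SE 0.29, adjusted p = 0.0533) against wild-type CCl4 and 0.77 (SE 0.29, adjusted p = 0.701) against wild-type oil. Atp6v1a, the other subunit that binds ATP, changed by -0.02 after CCl4, and Atp6v1h, a regulatory subunit, by 0.57 at a mean of 25.7 CPM. Atp6v0d2 had 27, 29 and 38 counts in the 3 groups and was not tested. Atp6v0c, the subunit that forms the membrane ring of the pump, was at 0 in all 15 libraries; GENCODE lists 2 processed pseudogenes of it, whose sequence could take part of its reads away, which was not tested.

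**Figure D4:**
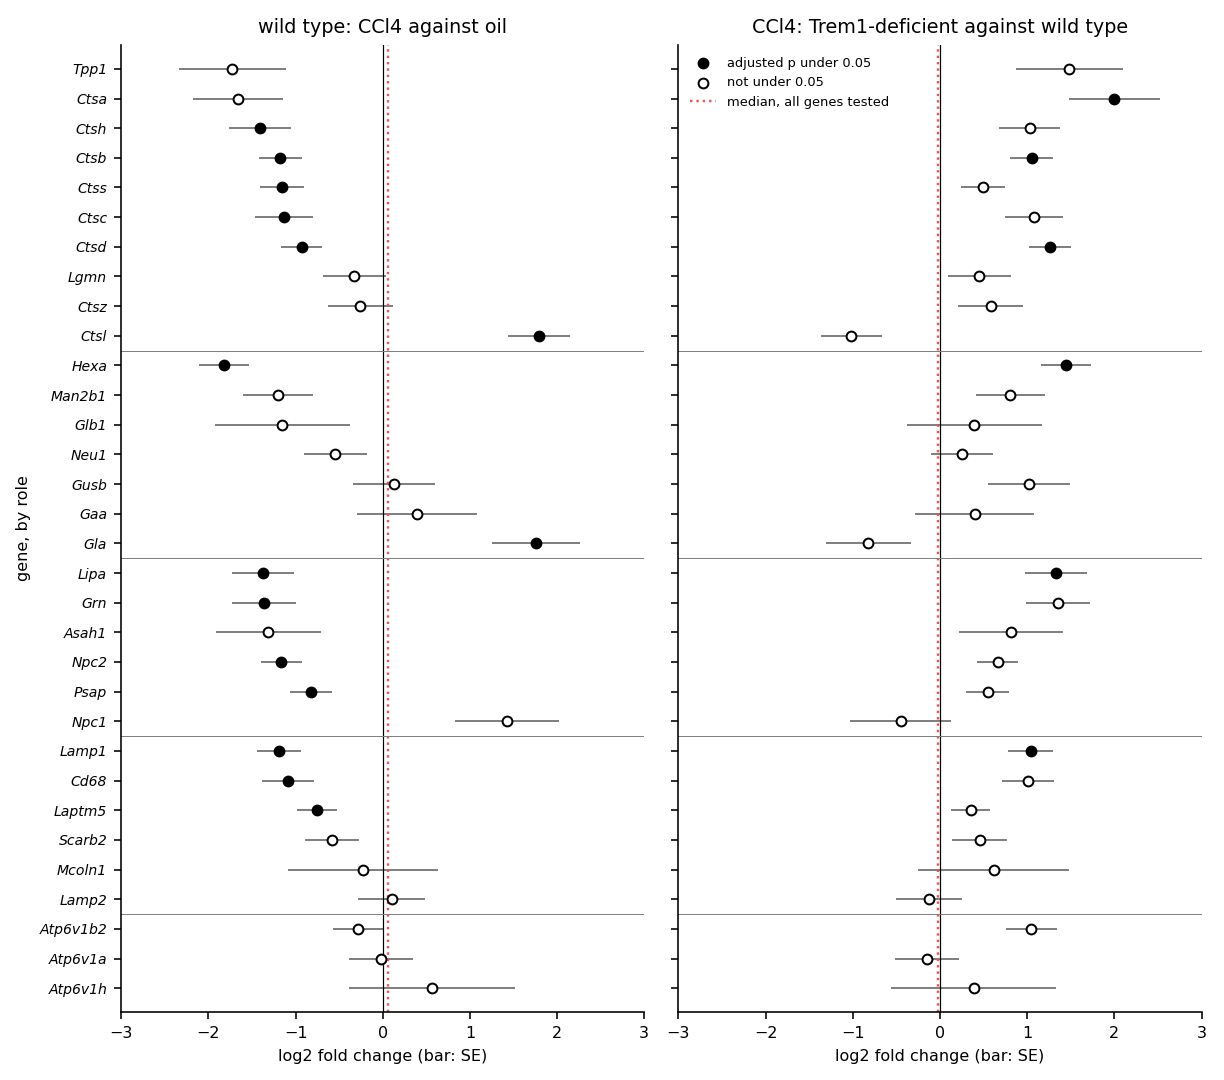
Log2 fold change with its SE for the 32 tested lysosomal genes, by role, for wild-type CCl4 against wild-type oil (left) and Trem1-deficient against wild-type under CCl4 (right); filled points have an edgeR adjusted p under 0.05 and the dotted line is the median of all 9001 genes. On the left 13 filled points lie below 0 and 2 above, and on the right 6 lie above 0; the panels share the wild-type CCl4 mice.

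Counted over all roles, the 5 genes called in both comparisons were Ctsb, Ctsd, Hexa, Lamp1 and Lipa, and Ctsa was called between genotypes only. In wild-type mice, all 5 CCl4 mice were lower than all 5 oil mice for 12 of the 32 genes (3.44% of all genes). Between the genotypes under CCl4, all 5 Trem1-deficient mice were higher for 10 of 32 (3.42% of all genes) and lower for 0 (2.12% of all genes). The count of 13 lower genes dropped to 8 without oil mouse 1, 3 or 5 or wild-type CCl4 mouse 2, and to 7 without wild-type CCl4 mouse 3. The count of 2 higher genes became 1, without Gla, when oil mouse 1 or 5, wild-type CCl4 mouse 2, 3 or 5 or Trem1-deficient mouse 4 was left out. Psap, Ctsc and Laptm5 lost their call with DESeq2's size factors and with DESeq2. DESeq2 called 12 lower after CCl4, with Ctsa and Tpp1 added, and 9 higher between genotypes, with Atp6v1b2, Cd68 and Grn added. Between genotypes the count of 6 became 3 without wild-type CCl4 mouse 3 or Trem1-deficient mouse 2, 2 (Ctsd and Hexa) without Trem1-deficient mouse 5 and 10 without wild-type CCl4 mouse 1.

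With the index series as a term in the fit, 0 of the 32 genes were called after CCl4 in wild type, where 37 of all 9001 genes were (0.411%). In that fit the series shift can be estimated only from the Trem1-deficient mice, the only group in both series. It is taken to be the same in wild type, so the fit does not separate CCl4 from the series there. All 15 genes kept their sign in that fit, 13 of the 32 had an unadjusted p under 0.05 and the median was -1.14. The median standard error of the 15 went from 0.29 to 0.52. Between genotypes the same fit called 4 genes higher, losing Lamp1 and Lipa. There 77 of all 9001 genes were called in either direction (0.855%). Within the second series alone, 3 Trem1-deficient against 5 wild-type mice, 0 were called, against 57 of all 8729 genes in that fit (0.653%). All 6 kept their sign and 13 of the 32 had an unadjusted p under 0.05, with a median of 0.76. The share of all genes with such a p was not counted in these series fits, so the unadjusted counts cannot be set against it. There Ctsd gave 1.41 (SE 0.35, adjusted p = 0.0544), Hexa 1.55 (SE 0.43, adjusted p = 0.106), Ctsb 1.22 (SE 0.36, adjusted p = 0.147) and Ctsa 2.33 (SE 0.69, adjusted p = 0.153).

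Trem1-deficient mice given CCl4 were also set against wild-type mice given oil, which differ in genotype and in treatment. None of the 32 genes was called by edgeR (0.233% of all genes were called) or by DESeq2. At an unadjusted p under 0.05 there were 5, against 419 of all 9001 genes. Among the 5 were Ctss with -0.66 (SE 0.25, adjusted p = 0.707), Npc2 with -0.50 (SE 0.23, adjusted p = 0.989) and Ctsl with 0.77 (SE 0.35, adjusted p = 0.951). The median log2 fold change was -0.07 over the lysosomal genes and 0.02 over all genes. Within the first index series, 2 Trem1-deficient against 5 oil mice, 0 were called, against 22 of all 9773 genes in that fit (0.225%). There 3 had an unadjusted p under 0.05, for which no share of all genes was counted, and the median was -0.25. These values do not show that the groups were alike.

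Other genes of the lysosome were counted in 6 lists with 127 genes, of which 107 were tested. After CCl4 in wild-type mice 7 of them were lower and 1 higher (2.09% and 3.04% of all genes), with a median log2 fold change of -0.48. Between the genotypes 5 were higher and 0 lower (0.778% and 1.28% of all genes), with a median of 0.52. There 19 of the 107 had an unadjusted p under 0.05, against 1364 of all 9001 genes, and DESeq2 called 2 lower. Among 29 tested further hydrolases, Pla2g15, a phospholipase (-2.53 (SE 0.67, adjusted p = 0.0235)), and Plbd2, a phospholipase B-like protein (-1.64 (SE 0.47, adjusted p = 0.0378)), were lower after CCl4. Between genotypes Acp5, tartrate-resistant acid phosphatase, was higher by 1.14 (SE 0.29, adjusted p = 0.0366), with Pla2g15 at 2.61 (SE 0.67, adjusted p = 0.0382) and Plbd2 at 1.75 (SE 0.47, adjusted p = 0.0451). Of 13 further pump subunits Atp6v0b alone was called, with -1.05 (SE 0.29, adjusted p = 0.0275) after CCl4 and 1.36 (SE 0.29, adjusted p = 0.00811) between genotypes. Of 21 further membrane proteins Laptm4a was lower after CCl4, with -1.27 (SE 0.26, adjusted p = 0.00242), and higher in Trem1-deficient cells, with 1.43 (SE 0.26, adjusted p = 0.0015). Cd63, a tetraspanin of late endosomes and lysosomes, was the only one of them called higher after CCl4 by edgeR. DESeq2 called 2 higher, and 9 of the 21 had a positive fold change. Cd63 read 33.3, 41.9, 59.8, 28.4 and 33.0 CPM in the oil mice, 318, 489.7, 585, 319 and 757 in the wild-type CCl4 mice and 179, 226, 431, 177 and 121 in the Trem1-deficient mice. Its -1.12 (SE 0.36, adjusted p = 0.1) between genotypes was not called. Each CCl4 mouse of either genotype was above every oil mouse, with 3.65 (SE 0.40, adjusted p = 1.1e-06) in wild type and 2.53 (SE 0.38, adjusted p = 0.000626) for Trem1-deficient CCl4 against wild-type oil. Of 4 tested cathepsin inhibitors Cst3, cystatin C, with -0.80 (SE 0.24, adjusted p = 0.0448), and Serpinb6a, with -2.31 (SE 0.51, adjusted p = 0.00478), were lower after CCl4.

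The lists for delivery to lysosomes (22 genes tested) and for transcriptional and nutrient control (18 tested) held 0 called genes in both comparisons. At an unadjusted p under 0.05 the delivery list had 5 after CCl4 and 3 between genotypes, and the control list 2 and 3. Of all 9001 genes tested, 1707 had such a p after CCl4 and 1364 between genotypes. DESeq2 called 1 delivery gene higher and 1 lower after CCl4 and 1 higher between genotypes, and 1 control gene lower after CCl4. Tfeb, the factor named above and chosen here after its values were seen, averaged 91.4 ± 90.4 CPM in oil, 18.0 ± 21.4 in wild-type CCl4 and 37.6 ± 12.5 in Trem1-deficient mice (SD, n = 5), with -2.33 (SE 0.80, adjusted p = 0.089) after CCl4. This was the lowest fold change of the 18 tested genes of the control list, which ran up to 1.91 with a median of -0.31.

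In the annotation the last 500 bases of 7 of the 35 genes overlap another gene, and the sources used here do not say whether counting used the strand. For Ctsa this is Pltp, with means of 2.27, 0.262 and 10.6 CPM in the 3 groups. Lamp1 overlaps Grtp1 (0.657, 0.131 and 1.32 CPM), Ctsb overlaps Fdft1 (9.69, 6.02 and 3.91 CPM) and Grn overlaps Fam171a2 (45.5, 33.5 and 84.1 CPM). Ctsz overlaps Nelfcd (48.6, 34.0 and 50.7 CPM), and Ctsd and Npc1 overlap Gm49369 and Rmc1, which had no value under those names. Gm49369 lies on the same strand as Ctsd, so counting by strand could not keep that pair apart, while the other overlapping genes lie on the opposite strand. It is therefore not known whether reads of these 7 pairs were kept apart in the counting.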

How the data were processed

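Libraries were made from Kupffer cell RNA with Lexogen's QuantSeq 3' kit, per the labels' protocols. The 60 entries of the labels are 4 lanes for each of 15 mice, and the mouse was the replicate, so p-values reflect how far mice of a group differ. The authors deposited 1 table of raw read counts by gene; the submitters' processing notes name Trimmomatic, STAR 2.5.1a, Partek 6.6 and mm10 with no role. For the counting, annotation and strand handling are not given in the sources used. Of 24415 lines, 4 tallies of unassigned reads were left out; genes held 12.6 to 28.8% of each library's reads. No molecular identifiers are mentioned, so counts are of reads.

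One fit of the 3 groups was made with edgeR 4.0.16 (R 4.3.3), using filterByExpr, TMM scaling and the robust quasi-likelihood F-test, with Benjamini-Hochberg adjustment over all 9001 tested genes, threshold 0.05. The script was tested on simulated counts. Levels are TMM-scaled CPM. Each standard error was worked back from the test, as the absolute log2 fold change over the square root of its F statistic. Alternatives were DESeq2 1.42.0, its size factors, no filter, a replicate block, the index series, fits of 2 groups, and each mouse left out; leaving out Malat1 was chosen after seeing the data. Members, role lists, pathway lists and markers were chosen with earlier results of these data known. Each gene called in any comparison and the 3 with the highest mean were described in every mouse, and of each pathway list up to 4 called genes with the smallest p. One result of a pathway list is not reported here. Motifs were searched as exact letters in RefSeq promoter windows.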

Additional observations from a re-analysis of the deposited data

Results flagged for a closer look

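In 9 of 96 groups of 5 mice (32 lysosomal genes in 3 groups) 1 mouse stood apart from the others by more than Dixon's limit. The limit was applied to log levels after adding 1 CPM, while the levels below are plain CPM. Chance flags about 1 in 20 groups. Most were oil mice. Oil mouse 2 was lowest for Gla (4.93 CPM, others 59.8 to 102), Gaa (1.23 CPM, others 35.2 to 74.9) and Npc1 (3.70 CPM, others 42.6 to 72.0), and highest for Glb1 (153 CPM, others 54.2 to 72.8). The same mouse had the lowest oil sum of the lysosomal genes (21297 CPM) and of the Kupffer cell markers (37165 CPM, others 63223 to 74539). Its hepatocyte markers were the highest of the oil group (17693 CPM, others 3448 to 7577). It thus sets the lower end of the oil ranges of the first 2 sums. Gla remained higher after CCl4 in wild-type mice without that mouse. Oil mouse 1 was highest for Ctsd (2611 CPM, others 1853 to 2046) and Atp6v1a (282 CPM, others 216 to 232), and lowest for Mcoln1 (4.63 CPM, others 27.1 to 48.2). Oil mouse 5 was highest for Psap (4858 CPM, others 3707 to 3918). Wild-type CCl4 mouse 5 was lowest for Lamp1 (285 CPM, others 629 to 740.2), and Lamp1 remained lower without it.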

How the results depend on the processing

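No log2 fold change of a lysosomal gene called in a comparison changed sign in any alternative run. After CCl4 in wild type, the 13 lower and 2 higher genes became 0 and 0 with the index series as a term, and 8 and 1 with only the 2 groups compared in the fit. Leaving out 1 mouse gave 7 to 13 lower and 1 to 2 higher; counts of 8 or fewer came without oil mouse 1, 3 or 5 or wild-type CCl4 mouse 2 or 3. Between genotypes under CCl4, the count of 6 higher genes was 3 (Ctsd, Hexa and, newly, Grn) with only those 2 groups in the fit and 0 within the second index series; with no filter 9 were higher and 1 (Ctsl) lower. Leaving out 1 mouse gave 2 to 10 higher and 0 to 1 lower, the single lower one being Ctsl without wild-type CCl4 mouse 1. For Trem1-deficient CCl4 against wild-type oil the count was 0 in each direction in all alternatives, leaving out 1 mouse included (0 to 0). Of the other lysosomal genes, 4 were higher after CCl4 with DESeq2 and 0 lower with the index series as a term; between genotypes 3 were higher with DESeq2's size factors, 2 with the index series, and 2 lower with DESeq2; against oil DESeq2 called 2 higher. Replicate numbers did not pair the mice, since correlations of same-numbered mice ran from -0.06 to 0.04. With the replicate block 11 genes were lower and 2 higher after CCl4, and 6 were higher between genotypes. The causes of these shifts were not tested, and fits with fewer mice also had smaller groups. Low genes such as Mcoln1 and Atp6v1h had standard errors of 0.86 and 0.95 after CCl4 and allow no firm statement.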
